A study of Rattus norvegicus with 16 samples.

Results

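The genes described here mostly encode enzymes that add or remove acetyl and methyl groups on histones, or methyl groups on DNA. They were chosen by gene symbol from the probes of an Agilent array: the Hdac, Sirt, Dnmt, Tet, Kdm, Kmt2, Kmt5 and Setd families, the lysine acetyltransferases named Kat2 and Kat5 to Kat8, and Ezh1, Ezh2, Ehmt1, Ehmt2, Crebbp and Ep300. Of 79 rat genes with such symbols, 41 had a probe, among 13888 genes with a named probe in all. Each gene is represented by its brightest probe. The 38 genes that matched no named probe, among them Hdac4, Hdac5, Sirt1, Sirt2, Tet1, Tet2, Tet3, Ep300 and Ehmt1, were not analysed here.

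RNA came from the hippocampus of male Sprague-Dawley rats (250 g at purchase), with 4 arrays per group. The 3 stressed groups had 8 weeks of chronic mild stress (CMS, a changing series of small stressors) and were labelled depression-susceptible, anxiety-susceptible and insusceptible; the control group had no CMS. Per the labels, rats entered the stress or control arm at random, with baseline sucrose intake taken into account. The labels read here do not give the sorting of stressed rats into 3 groups, nor whether 4 arrays mean 4 animals. The comparison of each stressed group with control asks which enzymes differ after CMS; the comparisons among stressed groups ask which differ with the kind of response.

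Acetyltransferases put acetyl groups on histone lysines, which loosens chromatin, and classical histone deacetylases (HDACs) and sirtuins take them off. Lysine methyltransferases and demethylases write and erase methyl marks that label active or silent genes, depending on the lysine, and DNA methyltransferases (DNMTs) mark cytosines. In the hippocampus these enzymes are known for their part in memory formation and in lasting responses to stress.

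The arrays lay on 4 slides, told apart by scan time. Slides 1 and 2 each held 2 depression-susceptible and 2 control arrays and were scanned on day 1. On day 2 came slide 3, with the anxiety-susceptible arrays, and slide 4, with the insusceptible ones. The variance between arrays sharing a group and a slide did not exceed that of repeated spots, so such arrays were averaged, leaving 6 samples: 2 depression-susceptible, 1 anxiety-susceptible, 1 insusceptible and 2 control. Standard errors (SE) and p-values therefore measure the spread between slides, not between animals, and the lone samples were assumed to vary like the others. For the anxiety-susceptible and insusceptible groups, stress group, slide and scan day cannot be told apart in the comparison with control. Levels are log2 signals relative to the 75th percentile of the array, so a level of 0 lies at that percentile. The percentile was 1077 to 1248 on day 2 and 2997 to 3382 on day 1, and 62.1% to 70.2% of probes on day 2 and 67.6% to 74% on day 1 were well above background. Neuron, astrocyte and oligodendrocyte markers were measured in all samples.

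Of the 41 enzymes, 36 were well above background on all 16 arrays. Dnmt3l, Ezh2 and Hdac2 passed on 4, 4 and 6 arrays and were tested with them, so 39 enzymes were tested among 11333 genes. Dnmt1, the maintenance methyltransferase, passed on 0 arrays and Kdm6b, an eraser of the Polycomb mark, on 1; they were not tested. The 39 comprised 6 HDACs, 5 sirtuins, 2 DNMTs, 10 lysine methyltransferases, 9 lysine demethylases and 7 acetyltransferases.

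Kmt5c and Hdac10 were the 2 enzymes that passed the test (limma, adjusted p under 0.05) as higher in all 3 comparisons of a stressed group with control. Kmt5c, which writes trimethylation on the tail of histone H4, a mark of compact chromatin, rose 2.44-fold in depression-susceptible rats, 3.29-fold in anxiety-susceptible rats and 2.8-fold in insusceptible rats. Hdac10, a deacetylase that also acts on polyamines, rose 1.68-fold, 2.82-fold and 2.35-fold in the same groups, in that order. Under the percentile scaling, in anxiety-susceptible and insusceptible rats, the acetyltransferases Kat8 and Kat7, the deacetylase Hdac1 and the demethylase Kdm1a fell, and Kdm1b and Dnmt3a rose. Under quantile normalization the calls of Kat7, Kdm1a and Dnmt3a stood in neither group. Kat8 then stood only in insusceptible rats and Hdac1 only in anxiety-susceptible rats. Differences from control were small for many enzymes: 31 of 39 in depression-susceptible rats, 18 in anxiety-susceptible rats and 17 in insusceptible rats differed from control by less than 0.25 on the log2 scale. Such differences were not counted over all probes, so these counts show nothing particular to the enzymes. The 3 comparisons share the same control samples. In tissue RNA, fewer cells of a type and less RNA per cell cannot be told apart.

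Counted with limma (adjusted p under 0.05), 2 of the 39 enzymes were higher in depression-susceptible rats than in controls, or 5.13%, beside 6.67% of all probes tested. There were 0 lower, beside 3.12% of all probes. Of the 39, 13 lay lower on both slides, 21 higher on both, and 5 in opposite directions. These directions were not counted over all probes. In anxiety-susceptible rats, 5 enzymes rose (12.8%), beside 13.6% of all probes, and 4 fell (10.3%), beside 16.6%. In insusceptible rats, 4 rose (10.3%), beside 16% of all probes, and 5 fell (12.8%), beside 14.2%. Under this scaling the shares lie near or below those of all probes. Quantile normalization split the calls differently. It gave 3 enzymes higher in depression-susceptible rats (7.69%, beside 6.5% of all probes) and 0 lower (beside 3.53%). In anxiety-susceptible rats it gave 9 higher (23.1%, beside 12.6%) and 2 lower (5.13%, beside 17.8%), and in insusceptible rats 8 higher (20.5%, beside 12.9%) and 3 lower (7.69%, beside 15.6%). With the percentile taken over detected probes, 7 rose and 1 fell in anxiety-susceptible rats (beside 18.8% and 8.68% of all probes) and 7 rose and 3 fell in insusceptible rats (beside 22.8% and 8.11%). The split between higher and lower calls in these groups therefore depended on the scaling. The F test over the 4 group means called 6 enzymes (15.4%), Kmt5c, Hdac10, Kat8, Kdm1b, Kat7 and Hdac1, beside 23.2% of all probes. The median difference of the 39 from control was 0.05, 0.11 and 0.07 in depression-susceptible, anxiety-susceptible and insusceptible rats, beside -0.06, -0.12 and -0.06 over all tested genes. The medians of the enzymes were 0.12, 0.20 and 0.15 under quantile normalization and 0.12, 0.29 and 0.24 under the percentile of detected probes. Without the control sample of slide 2 they were -0.01, 0.0 and 0.07, and without the depression-susceptible sample of slide 1 the first was 0.0.

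**Figure D1:**
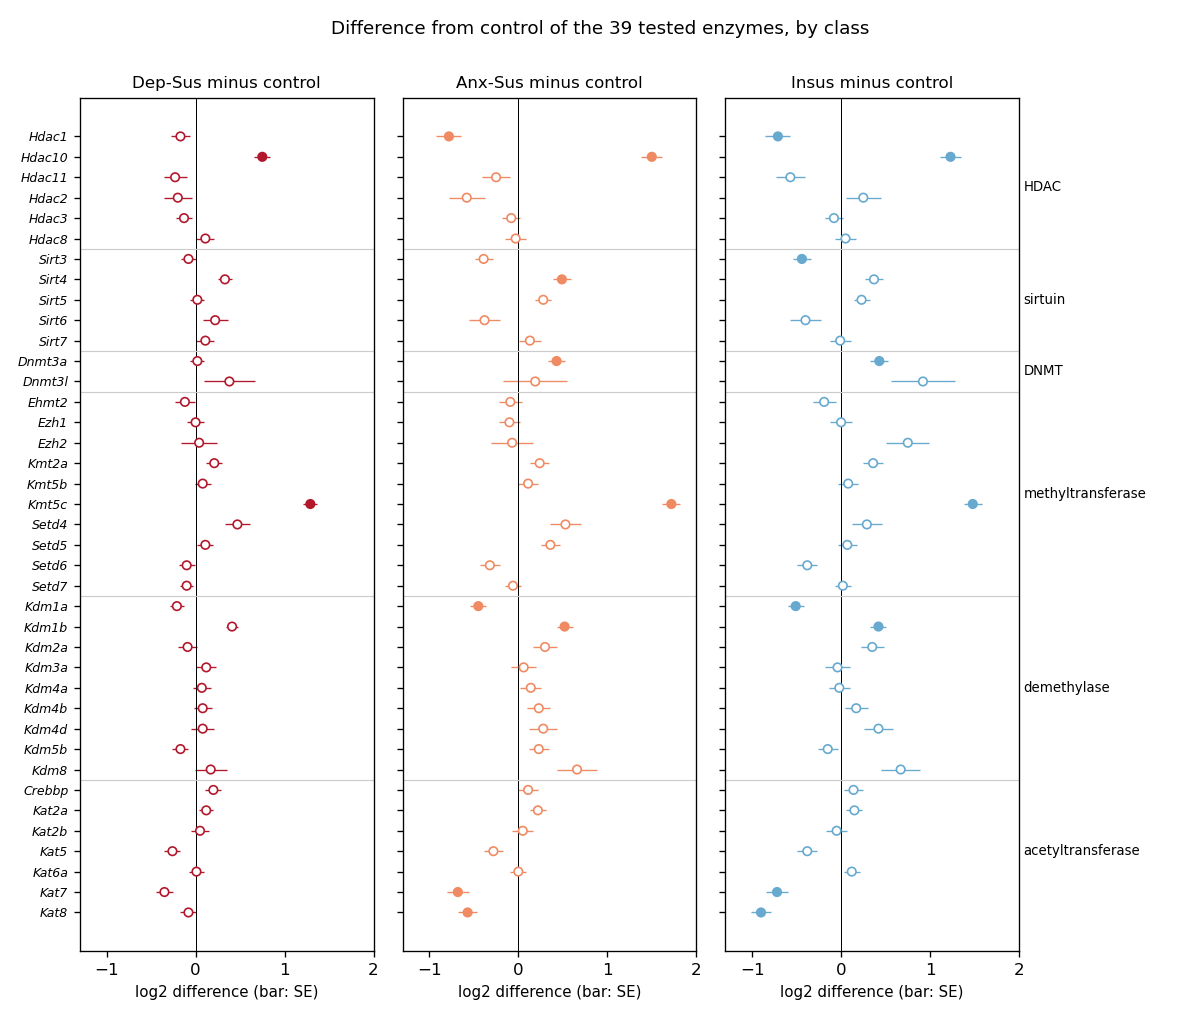
Log2 difference from control (x axis) of the 39 tested enzymes, grouped by class, in depression-susceptible (Dep-Sus), anxiety-susceptible (Anx-Sus) and insusceptible (Insus) rats. Bars are the SE of the 6-sample fit and filled points passed an adjusted p of 0.05; Kmt5c (1.29, 1.72 and 1.48) and Hdac10 (0.75, 1.5 and 1.23) lie farthest to the right.

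Promoters of some called members are shown, picked by hand from genes that moved in opposite directions. They are RefSeq sequences of assembly GRCr8, from 250 bases before to 50 bases after the gene start, on the strand of the gene; 33 of the 41 members had one. Capitals mark GC boxes (GGGCGG) and CCAAT boxes (CCAAT), read on either strand. Kmt5c lies at chr1:78135882-78136181 on the minus strand, Hdac10 at chr7:122083797-122084096 on the minus strand, Kat8 at chr1:191954577-191954876 on the plus strand and Hdac1 at chr5:147165338-147165637 on the minus strand.
Kmt5c: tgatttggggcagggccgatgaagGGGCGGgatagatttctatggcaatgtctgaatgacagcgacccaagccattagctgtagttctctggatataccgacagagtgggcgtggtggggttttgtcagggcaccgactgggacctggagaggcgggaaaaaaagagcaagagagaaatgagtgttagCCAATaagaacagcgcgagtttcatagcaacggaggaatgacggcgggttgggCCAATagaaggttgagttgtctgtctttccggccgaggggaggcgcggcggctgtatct
Hdac10: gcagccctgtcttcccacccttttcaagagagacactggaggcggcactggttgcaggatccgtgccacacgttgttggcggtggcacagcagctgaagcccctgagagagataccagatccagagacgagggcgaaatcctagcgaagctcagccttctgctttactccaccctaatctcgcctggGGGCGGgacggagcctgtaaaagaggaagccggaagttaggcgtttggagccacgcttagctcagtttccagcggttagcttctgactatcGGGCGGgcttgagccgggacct
Kat8: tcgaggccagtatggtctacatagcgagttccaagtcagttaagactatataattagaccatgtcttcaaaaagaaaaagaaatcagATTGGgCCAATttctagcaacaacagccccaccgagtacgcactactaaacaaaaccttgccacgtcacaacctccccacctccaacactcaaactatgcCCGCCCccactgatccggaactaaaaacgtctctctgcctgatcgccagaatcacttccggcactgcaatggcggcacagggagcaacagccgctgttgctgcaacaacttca
Hdac1: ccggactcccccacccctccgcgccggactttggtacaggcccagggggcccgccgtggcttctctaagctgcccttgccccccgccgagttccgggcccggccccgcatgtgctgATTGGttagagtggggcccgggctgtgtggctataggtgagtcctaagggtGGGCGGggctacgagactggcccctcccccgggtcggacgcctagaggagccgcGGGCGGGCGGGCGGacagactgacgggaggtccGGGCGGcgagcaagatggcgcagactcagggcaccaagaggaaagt

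Kmt5c, which rose, had 1 GC box and 2 CCAAT boxes in this window, and Hdac10 had 2 GC boxes and 0 CCAAT boxes. Kat8, which fell on day 2 slides, had 1 GC box and 2 CCAAT boxes, and Hdac1 had 5 GC boxes, of which some overlap, and 1 CCAAT box. Among the 33 members, 26 (78.8%) held a GC box, beside 43.1% of all 19005 protein-coding promoters, and 17 (51.5%) held a CCAAT box, beside 38.4%. All promoters with a sequence were counted, whatever their length. The median number of CpG sites was 20 in the members and 12 in all promoters. The cAMP response element (TGACGTCA) was found in 0 members and 2.22% of all promoters, the E-box (CACGTG) in 5 members (15.2%) and 7.27%, and the glucocorticoid receptor half-site (AGAACA) in 3 members (9.09%) and 17.7%. Kmt5c was 1 of the 3 members with that half-site. These letters describe the windows and say nothing about factors bound there.

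Among the methyltransferases, Kmt5c differed most from control. Its level was 0.77 on slide 1 and 0.71 on slide 2 in depression-susceptible rats, 1.17 in anxiety-susceptible rats and 0.93 in insusceptible rats, against -0.58 and -0.51 in controls. Over single arrays it was 0.55 to 0.87 in depression-susceptible rats, 1.11 to 1.24 in anxiety-susceptible rats and 0.85 to 0.99 in insusceptible rats, against -0.70 to -0.47 in controls. No stressed array overlapped a control array. As arrays sharing a group and a slide varied no more than repeated spots, this and the array ranges below compare the averaged samples and not animals. The difference from control was 1.29 ± 0.08 in depression-susceptible rats (SE, limma adjusted p = 0.0054), 1.72 ± 0.10 in anxiety-susceptible rats (adjusted p = 0.0066) and 1.48 ± 0.10 in insusceptible rats (adjusted p = 0.00747). In the one comparison where both groups shared slides, it was 1.36 on slide 1 and 1.22 on slide 2. Kmt5b, the other enzyme of this pair, differed from control by 0.08 in depression-susceptible rats (adjusted p = 0.599), 0.11 in anxiety-susceptible rats (adjusted p = 0.482) and 0.08 in insusceptible rats (adjusted p = 0.598).

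The remaining methyltransferases did not pass the test in any comparison with control under the percentile scaling. Under quantile normalization 3 passed in anxiety-susceptible rats, Ehmt2 (0.37, adjusted p = 0.039), Setd4 (0.60, adjusted p = 0.0476) and Setd5 (0.50, adjusted p = 0.0316). In insusceptible rats Ezh1 (0.38, adjusted p = 0.0457), Kmt2a (0.52, adjusted p = 0.0362) and Setd6 (-0.37, adjusted p = 0.0449) passed under that scaling. Setd4, Setd5 and Setd6 are named here after their values were seen. Setd4, a SET-domain protein, had 0.99 and 1.17 in depression-susceptible rats, 1.14 in anxiety-susceptible rats and 0.91 in insusceptible rats, against 0.47 and 0.75 in controls, a difference of 0.47 ± 0.14 for the first group (adjusted p = 0.119). Kmt2a, which methylates histone H3 at active promoters and is needed for hippocampal memory in mice, had 1.87 and 1.82 in depression-susceptible rats, 1.87 in anxiety-susceptible rats and 1.99 in insusceptible rats, against 1.55 and 1.71 in controls. Its largest difference was 0.36 ± 0.11, in insusceptible rats (adjusted p = 0.0829). The level of Ehmt2, which writes a silencing mark on histone H3, was 3.86 and 3.71 in depression-susceptible rats, 3.81 in anxiety-susceptible rats and 3.72 in insusceptible rats, against 3.98 and 3.82 in controls, and its differences from control, in the same order, were -0.12, -0.09 and -0.19. Ezh1, a Polycomb methyltransferase, stood at 3.09 and 2.93 in depression-susceptible rats, 2.92 in anxiety-susceptible rats and 3.02 in insusceptible rats, against 3.08 and 2.96 in controls. Setd7, which methylates histone H3 and other proteins, lay between -3.83 and -3.69 in all 6 samples. For Ehmt2, Ezh1 and Setd7 no stressed group differed from control by more than 0.19 under the percentile scaling. Ezh2, the other Polycomb methyltransferase, was well above background on 3 depression-susceptible arrays, 1 anxiety-susceptible array and 0 insusceptible and control arrays, so no fold is given for it.

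Among the HDACs, Hdac10 moved up and Hdac1 down. Hdac10 had -0.01 and 0.16 in depression-susceptible rats, 0.82 in anxiety-susceptible rats and 0.56 in insusceptible rats, against -0.67 and -0.67 in controls. Single arrays reached -0.06 to 0.20 in depression-susceptible rats, 0.81 to 0.84 in anxiety-susceptible rats and 0.53 to 0.57 in insusceptible rats, against -0.69 to -0.66 in controls. There was no overlap between any of the 4 groups. Since arrays sharing a group and a slide varied no more than repeated spots, this sets averaged samples apart and not animals. The difference from control was 0.75 ± 0.09 in depression-susceptible rats (adjusted p = 0.0253), 1.5 ± 0.12 in anxiety-susceptible rats (adjusted p = 0.00889) and 1.23 ± 0.12 in insusceptible rats (adjusted p = 0.0116). Within slides, the depression-susceptible difference was 0.66 and 0.83. It no longer passed when any 1 of the 4 depression-susceptible or control samples was left out (adjusted p = 0.0905 to 0.139), whereas its size stayed between 0.66 and 0.83.

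Hdac1, the catalytic core of the NuRD, Sin3 and CoREST complexes, had 2.18 and 2.37 in depression-susceptible rats, 1.66 in anxiety-susceptible rats and 1.72 in insusceptible rats, against 2.52 and 2.36 in controls. In depression-susceptible rats the arrays overlapped control and the difference was -0.17 ± 0.11 (adjusted p = 0.391). The difference was -0.78 ± 0.14 in anxiety-susceptible rats (adjusted p = 0.029) and -0.71 ± 0.14 in insusceptible rats (adjusted p = 0.0334). All arrays of these groups, at 1.59 to 1.75 in anxiety-susceptible and 1.70 to 1.76 in insusceptible rats, lay below every control array, at 2.29 to 2.74. Hdac3, the partner of the nuclear receptor co-repressors, stayed between -0.14 and 0.08 in the 6 samples. Hdac8 differed from control by 0.11 in depression-susceptible rats, -0.03 in anxiety-susceptible rats and 0.05 in insusceptible rats. Hdac11, singled out after its values were seen, differed by -0.23, -0.25 and -0.57 in these groups, in that order, with an adjusted p of 0.0693 for insusceptible rats. Hdac2, a brake on memory formation in mice, was well above background on 3 depression-susceptible, 0 anxiety-susceptible, 1 insusceptible and 2 control arrays. Its difference from control passed the test in none of the stressed groups (adjusted p = 0.47 in depression-susceptible rats, 0.0981 in anxiety-susceptible rats and 0.37 in insusceptible rats). In anxiety-susceptible rats it was -0.58 ± 0.20 under the percentile, passed as lower under quantile normalization (-0.91, adjusted p = 0.0367), and lay higher than control under normexp background correction with the percentile (0.84), so its direction is not settled at this signal.

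Under the percentile scaling, Kat8 and Kat7 were the acetyltransferases that fell. Kat8, which acetylates histone H4, was at 2.18 and 2.13 in depression-susceptible rats, 1.66 in anxiety-susceptible rats and 1.33 in insusceptible rats, against 2.31 and 2.15 in controls. The anxiety-susceptible arrays lay at 1.61 to 1.70 and the insusceptible arrays at 1.26 to 1.37, both below the control arrays at 2.11 to 2.33. Kat8 fell by 0.57 ± 0.11 on the log2 scale in anxiety-susceptible rats (adjusted p = 0.0335) and by 0.90 ± 0.11 in insusceptible rats (adjusted p = 0.0168), 1.49-fold and 1.87-fold lower. In depression-susceptible rats it differed by -0.08 ± 0.09 (adjusted p = 0.613). Kat7, the catalytic unit of another histone acetyltransferase complex, had 4.11 and 3.91 in depression-susceptible rats, 3.68 in anxiety-susceptible rats and 3.65 in insusceptible rats, against 4.36 and 4.36 in controls. Its differences from control were -0.68 ± 0.12 in anxiety-susceptible rats (adjusted p = 0.0296), -0.72 ± 0.12 in insusceptible rats (adjusted p = 0.0274) and -0.35 ± 0.10 in depression-susceptible rats (adjusted p = 0.115).

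The better known coactivators varied less. Crebbp, the CREB-binding protein, had 0.17 and 0.22 in depression-susceptible rats, 0.11 in anxiety-susceptible rats and 0.13 in insusceptible rats, against 0.06 and -0.08 in controls. Kat2a, a unit of the SAGA coactivator, had 1.70 and 1.79 in depression-susceptible rats, 1.84 in anxiety-susceptible rats and 1.78 in insusceptible rats, against 1.63 and 1.62 in controls, and none of its differences passed (adjusted p = 0.357, 0.152 and 0.273 in that order). Kat2b, its close relative, lay between 1.52 and 1.70 in all 6 samples. Kat5, an acetyltransferase with a part in DNA repair, had 0.53 and 0.61 in depression-susceptible rats, 0.55 in anxiety-susceptible rats and 0.45 in insusceptible rats, against 0.76 and 0.90 in controls. Each stressed sample lay below both control samples, but the differences of -0.26, -0.28 and -0.38 in that order did not pass (adjusted p = 0.153, 0.131 and 0.0695). Kat6a differed by 0.01 and 0.12 in depression-susceptible and insusceptible rats and had 2.33 in anxiety-susceptible rats, against 2.33 and 2.34 in controls.

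Under the percentile scaling, the 2 flavin-dependent lysine demethylases moved in opposite directions. Kdm1b had 1.17 and 1.19 in depression-susceptible rats, 1.29 in anxiety-susceptible rats and 1.19 in insusceptible rats, against 0.79 and 0.75 in controls. Every stressed array, at 1.13 or above, exceeded every control array, at 0.83 or below. The difference was 0.52 ± 0.09 in anxiety-susceptible rats (adjusted p = 0.0268) and 0.42 ± 0.09 in insusceptible rats (adjusted p = 0.0382). In depression-susceptible rats it was 0.41 ± 0.07, just short of the call (adjusted p = 0.0503), and 0.42 under quantile normalization (adjusted p = 0.0391).

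Kdm1a, the demethylase of the CoREST complex that also holds Hdac1, had 3.01 and 2.97 in depression-susceptible rats, 2.75 in anxiety-susceptible rats and 2.69 in insusceptible rats, against 3.23 and 3.16 in controls. It differed by -0.45 ± 0.09 in anxiety-susceptible rats (adjusted p = 0.0374), by -0.51 ± 0.09 in insusceptible rats (adjusted p = 0.0305) and by -0.21 ± 0.08 in depression-susceptible rats (adjusted p = 0.17). Under quantile normalization the Kdm1a differences were -0.07 in anxiety-susceptible, -0.13 in insusceptible and -0.00 in depression-susceptible rats, so its fall depended on the scaling. Kdm8, a JmjC-domain protein, had -2.36 and -1.98 in depression-susceptible rats, -1.68 in anxiety-susceptible rats and -1.67 in insusceptible rats, against -2.48 and -2.20 in controls. With SE of 0.22, its differences of 0.66 and 0.67 in anxiety-susceptible and insusceptible rats did not pass (adjusted p = 0.0921 and 0.0886). The other 6 demethylases, Kdm2a, Kdm3a, Kdm4a, Kdm4b, Kdm4d and Kdm5b, passed in none of the comparisons with control under the percentile scaling, with differences between -0.17 and 0.42.

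Dnmt3a, which sets new DNA methylation, had -3.19 and -3.22 in depression-susceptible rats, -2.80 in anxiety-susceptible rats and -2.80 in insusceptible rats, against -3.18 and -3.27 in controls. It rose by 0.43 ± 0.10 in both day 2 groups (adjusted p = 0.0435 and 0.043), and differed by 0.02 ± 0.08 in depression-susceptible rats. A second Dnmt3a probe for another transcript, of similar signal, gave differences of -0.08, 0.37 and 0.27 in depression-susceptible, anxiety-susceptible and insusceptible rats. With the 2 probes averaged, Dnmt3a passed in neither day 2 group (adjusted p = 0.0528 and 0.0692). Dnmt3l, a cofactor without catalytic activity, was well above background on 3 depression-susceptible and 1 control array, and no fold is given for it.

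Of the sirtuins, Sirt4, a mitochondrial enzyme, had -1.09 and -1.0 in depression-susceptible rats, -0.88 in anxiety-susceptible rats and -1.0 in insusceptible rats, against -1.37 and -1.37 in controls. It rose by 0.49 ± 0.10 in anxiety-susceptible rats (adjusted p = 0.0335), and differed by 0.33 ± 0.08 in depression-susceptible rats (adjusted p = 0.0869) and 0.37 ± 0.10 in insusceptible rats (adjusted p = 0.0579). Sirt3, the main mitochondrial deacetylase, singled out after its values were seen, had 3.74 and 3.75 in depression-susceptible rats, 3.43 in anxiety-susceptible rats and 3.39 in insusceptible rats, against 3.89 and 3.76 in controls. It passed in insusceptible rats (-0.44 ± 0.10, adjusted p = 0.0465) and just missed in anxiety-susceptible rats (-0.39 ± 0.10, adjusted p = 0.0578), and these differences were 0.03 and 0.05 under quantile normalization. Sirt6, a nuclear sirtuin, had -1.38 and -1.09 in depression-susceptible rats, -1.83 in anxiety-susceptible rats and -1.85 in insusceptible rats, against -1.53 and -1.37 in controls. Its differences of 0.22, -0.38 and -0.40 in that order did not pass (adjusted p = 0.367, 0.168 and 0.15). Sirt7 lay between 0.91 and 1.15 in all 6 samples.

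**Figure D2:**
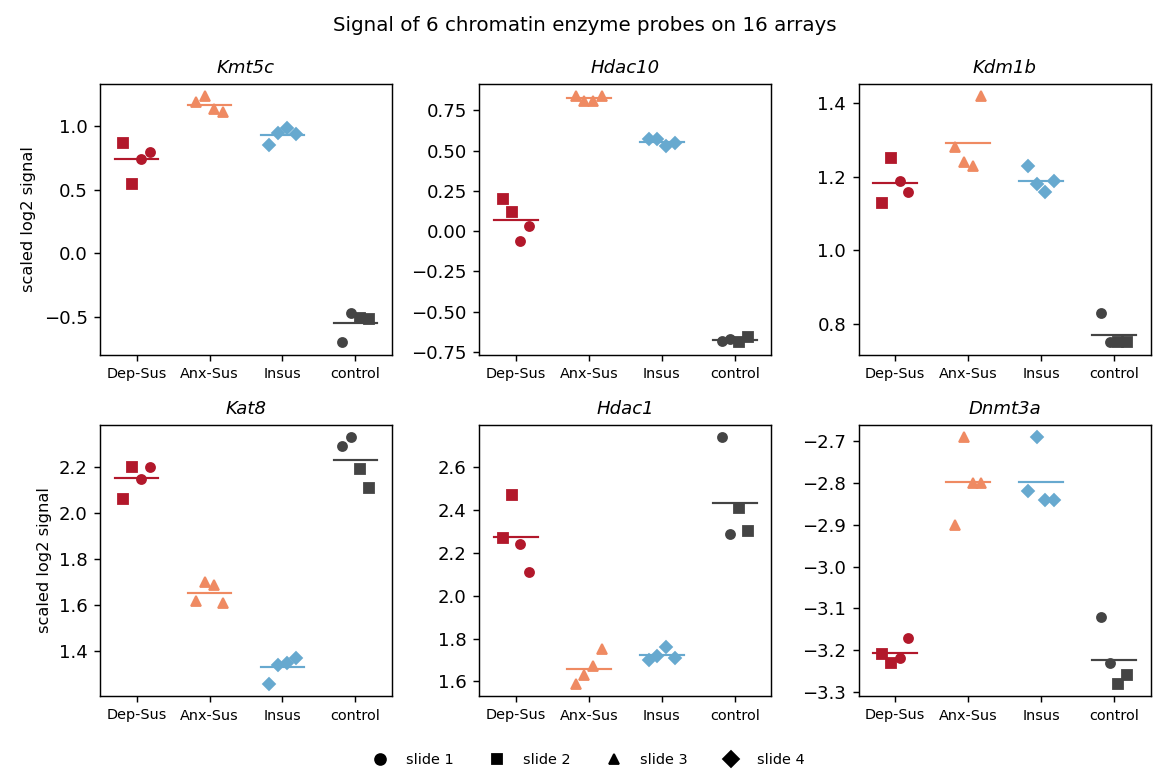
Scaled log2 signal of Kmt5c, Hdac10, Kdm1b, Kat8, Hdac1 and Dnmt3a on each of the 16 arrays, with a line at the group mean and a symbol for each slide. Kmt5c, Hdac10 and Kdm1b lie higher in all 3 stressed groups than in controls (for Kmt5c, 0.55 to 1.24 against -0.70 to -0.47), while Kat8, Hdac1 and Dnmt3a set the 2 groups of slides 3 and 4 apart from the other 2.

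With slide as a block, 7 of the 39 enzymes (17.9%) differed between depression-susceptible and control rats, beside 37.7% of all probes. Kmt5c, Hdac10, Kdm1b, Setd4 and Sirt4 were higher (adjusted p = 0.00545, 0.0133, 0.0187, 0.018 and 0.0292). Kat5 and Kat7 were lower (adjusted p = 0.0364 and 0.0444). Slide as a block removes what the groups of slides 1 and 2 share, and what is left is not a measure of the spread between animals. It makes no adjustment for slides 3 and 4, which were not shared between groups.

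Among the stressed groups 0 of the 39 enzymes passed in any comparison with limma under the percentile scaling. The share of all probes was 0.084% for depression-susceptible against insusceptible, 0.0783% for anxiety-susceptible against insusceptible and 0.23% for depression-susceptible against anxiety-susceptible. At an unadjusted p under 0.05 there were 10, 3 and 10 enzymes. The share of all probes at that threshold was not counted, so these counts show nothing particular to the enzymes. Taken as separate samples, the 16 arrays gave 19, 10 and 21 past the adjusted threshold (48.7%, 25.6% and 53.8%, beside 61.9%, 37.1% and 62% of all probes). With slide as a block the counts were 12, 0 and 11 (30.8%, 0% and 28.2%, beside 39%, 3.01% and 40.6% of all probes). The depression-susceptible arrays lay on slides 1 and 2 of day 1 and the other stressed arrays on slides 3 and 4 of day 2, so in each of these comparisons group and slide cannot be told apart, nor can scan day where depression-susceptible rats are involved. Depression-susceptible minus insusceptible, Kat8 differed by 0.83 ± 0.11 (adjusted p = 0.0773), Hdac10 by -0.48 ± 0.12 (adjusted p = 0.0999) and Kmt5c by -0.19 ± 0.10 (adjusted p = 0.256). Depression-susceptible minus anxiety-susceptible, Kat8 differed by 0.50 ± 0.11 (adjusted p = 0.0844), Hdac10 by -0.75 ± 0.12 (adjusted p = 0.0625) and Kmt5c by -0.43 ± 0.10 (adjusted p = 0.084). None of these passed under the percentile scaling. Under quantile normalization the Kat8 difference from insusceptible rats (0.76) and the Hdac10 difference from anxiety-susceptible rats (-0.77) passed. Those calls were 2.56% of the enzymes in each comparison, beside 4.71% and 10.2% of all probes. Anxiety-susceptible minus insusceptible, which shared a scan day but not a slide, Kmt5c differed by 0.24 ± 0.11, Hdac10 by 0.27 ± 0.13 and Kat8 by 0.33 ± 0.13 (adjusted p = 0.564, 0.588 and 0.489).

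The way arrays were scaled decided several of these calls. Quantile normalization called 3, 11 and 11 enzymes in depression-susceptible, anxiety-susceptible and insusceptible rats, of which 1, 6 and 7 were not called under the percentile. Under quantile normalization 2 of the 2 depression-susceptible calls, 5 of the 9 anxiety-susceptible calls and 4 of the 9 insusceptible calls stood. Kmt5c and Hdac10 stood in all 3 groups, Kdm1b in both day 2 groups, Hdac1 and Sirt4 in anxiety-susceptible and Kat8 in insusceptible rats. Kat8 in anxiety-susceptible rats was -0.37 (adjusted p = 0.0526) and Hdac1 in insusceptible rats -0.49 (adjusted p = 0.0569). For Kat7 the anxiety-susceptible and insusceptible differences shrank to -0.18 and -0.21, for Kdm1a to -0.07 and -0.13, and for Dnmt3a to 0.18 and 0.15. Calls gained under quantile normalization were Kdm1b in depression-susceptible rats, Hdac2, Kat2a, Ehmt2, Setd4, Setd5 and Sirt5 in anxiety-susceptible rats, and Kat6a, Kdm2a, Ezh1, Kmt2a, Setd6, Sirt5 and Sirt6 in insusceptible rats. All of these were higher than control except Hdac2, Setd6 and Sirt6. Kat2a stood at 0.37 in anxiety-susceptible rats (adjusted p = 0.0408), and in insusceptible rats Kat6a at 0.37 (adjusted p = 0.0427), Kdm2a at 0.49 (adjusted p = 0.0483) and Sirt6 at -0.56 (adjusted p = 0.0433). Differences changed sign for 6, 6 and 7 of the 39 enzymes in depression-susceptible, anxiety-susceptible and insusceptible rats, Ehmt2 among them in all 3 (0.17, 0.37 and 0.29 after quantile normalization). Sirt5, a mitochondrial desuccinylase singled out after its values were seen, had 4.05 in anxiety-susceptible and 4.01 in insusceptible rats, against 3.80 and 3.75 in controls. Anxiety-susceptible and insusceptible rats differed from control by 0.28 and 0.23 under the percentile (adjusted p = 0.0919 and 0.127) and by 0.73 and 0.69 under quantile normalization (adjusted p = 0.014 and 0.0165).

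**Figure D3:**
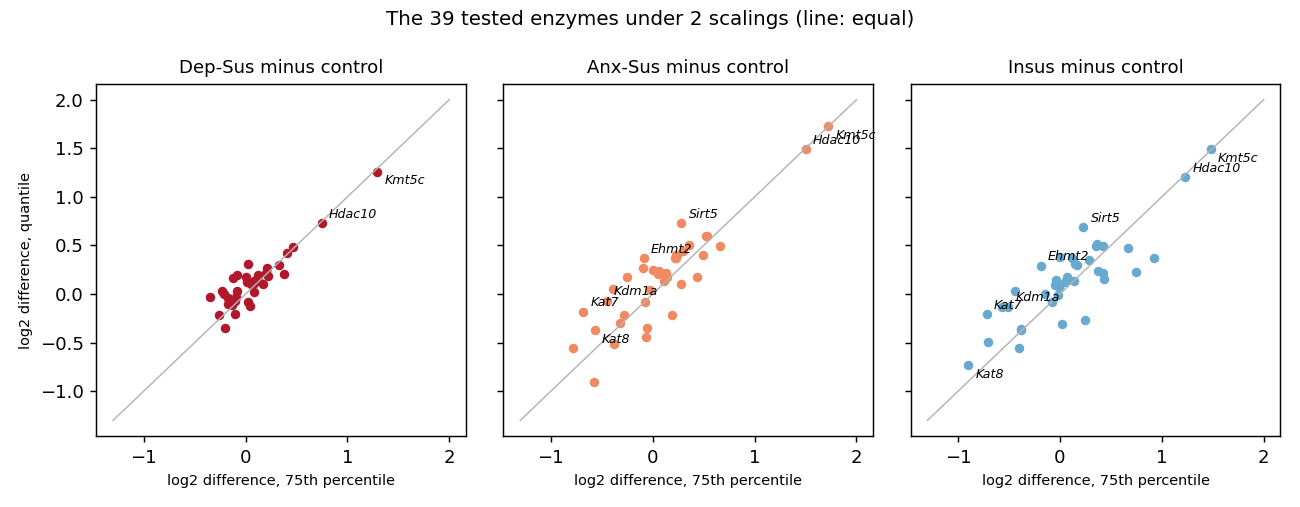
Log2 difference from control of the 39 enzymes under the 75th percentile (x axis) and under quantile normalization (y axis), for the 3 stressed groups, with a line where both are equal. Kmt5c and Hdac10 lie on the line, Kat7, Kdm1a and Sirt5 lie above it in anxiety-susceptible and insusceptible rats.

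Markers of other cell types also differed between groups. The 9 tested choroid plexus markers averaged -2.63 and -2.49 in depression-susceptible rats, -0.46 in anxiety-susceptible rats and -3.12 in insusceptible rats, against 1.41 and 1.44 in controls, and 9, 8 and 9 of them fell. All 9 were well above background on at least 4 arrays, and all 3 stressed groups, in which Kmt5c, Hdac10 and Kdm1b were higher, had them lower than controls. Among the stressed groups, anxiety-susceptible rats had the highest level of these markers and also the highest levels of Kmt5c, Hdac10 and Kdm1b. The 6 red blood cell markers averaged -0.54 and -0.46 in depression-susceptible rats, -4.02 in anxiety-susceptible rats and -2.96 in insusceptible rats, against -3.67 and -3.58 in controls. Of these, 5, 0 and 4 were higher than control in depression-susceptible, anxiety-susceptible and insusceptible rats, and 1, 2 and 1 lower. Microglia markers had a median difference from control of -0.45 in depression-susceptible rats, -0.62 in anxiety-susceptible rats and -0.48 in insusceptible rats, with 3, 4 and 2 of 7 lower and 0 higher. Inhibitory neuron markers had -0.35, -0.31 and -0.57 in the same order, with 2, 2 and 3 of 7 lower and 0 higher. Excitatory neuron markers had -0.04, -0.40 and -0.19, with 1, 1 and 1 of 7 lower and 0, 0 and 1 higher. Astrocyte markers had -0.33, -0.06 and -0.09, with 0 called. Oligodendrocyte markers had -0.33, -0.27 and -0.13, with 0, 0 and 1 of 6 lower. Endothelial markers had 0.06, -0.04 and 0.26, with 0, 0 and 1 of 5 higher. Of all probes, 3.12%, 16.6% and 14.2% were lower than control and 6.67%, 13.6% and 16% higher, in the same order. The part of these cells in the differences of the enzymes was not tested, nor was that of the lower day 2 signal in the calls for Kat8, Kat7, Hdac1, Kdm1a and Dnmt3a.

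Other chromatin genes were set beside the enzymes. Of 75 listed genes (other methyltransferases, arginine methyltransferases, acetyltransferases, demethylases, complex partners and methylation readers), 50 had a probe and 46 were tested. In depression-susceptible rats 2 rose (4.35%, beside 6.67% of all probes) and 1 fell (2.17%, beside 3.12%). Dot1l, which methylates the core of histone H3, rose by 0.80 ± 0.09 (adjusted p = 0.0211) and Riox2, a JmjC-domain oxygenase, by 0.65 ± 0.09 (adjusted p = 0.032). Dpy30, a subunit shared by the Kmt2 complexes, fell by 0.52 ± 0.08 (adjusted p = 0.0441). In anxiety-susceptible rats 2 rose (4.35%, beside 13.6% of all probes) and 10 fell (21.7%, beside 16.6%), and in insusceptible rats 2 rose (4.35%, beside 16%) and 10 fell (21.7%, beside 14.2%).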

How the data were processed

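Hippocampal RNA was measured on 16 single-colour Agilent arrays, 4 per group. Random priming after removal of rRNA gave Cy3-labelled cRNA, per the labels. The deposited intensity of each spot comes from Feature Extraction 11.0.1.1 with background subtracted, per the file headers. The deposited value table holds log2 values; no source used here names its software, its columns share their quantiles, and it served as an alternative.

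Control and outlier spots were left out, spots of a probe were averaged, and each array's log2 processed signal was lowered by its 75th percentile. From all 24684 probes, those well above background on at least 4 arrays were tested. Probe targets were named through RefSeq names of GRCr8, and 14274 of 15323 messenger RNA probes matched. No positions are given for probes. A limma 3.58.1 group-means model (R 4.3.3) was fitted to 6 samples, with 2 residual degrees of freedom, moderated two-sided tests and Benjamini-Hochberg adjustment over all probes tested, at 0.05. The number of slides and averaged samples limits the precision, and 0 spots were saturated. Values were tabulated and plotted in Python 3.11.15 (pandas 2.3.3 and numpy 2.4.6, with matplotlib 3.10.9 for plots). The fit was tested on simulated data. The averaging rested on probes with repeated spots: the variance between arrays of a group was 0.448 to 0.943 times that expected from spots on the same slide and 2.98 to 4.63 times across slides. Messenger RNA probes mostly have 1 spot and were not in that check.

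The members and lists were chosen with earlier results of these data known. Named members were those called with the same sign under quantile normalization (up to 8 per comparison), the most variable of each class, and a set much studied in the hippocampus. Alternatives were quantile scaling, the percentile over detected probes, normexp background correction, the deposited value table, other filters, averaged probes, separate arrays, blocks and leaving out samples or arrays. The files hold no mean signal, so normexp (offset 50) used the median signal, and the background of 0 to 9 spots per array that exceeded 5 times the median was set to the median. This was chosen after seeing the data.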

Additional observations from a re-analysis of the deposited data

Results flagged for a closer look

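Within a group of 4 arrays, 1 array lay far from the other 3 in 6 of 100 cases, from 25 enzymes in 4 groups; chance gives about 1 in 20. In insusceptible rats, 1 array had Hdac2 at -4.80, with the next at -6.44, and it was the only insusceptible array where Hdac2 was well above background. Another lay low for Dnmt1, at -8.02, where no array was above background. Dnmt3a had 1 high insusceptible array at -2.69, with the next at -2.82. In depression-susceptible rats, 1 array was low for Ezh2 at -7.82, the others reaching -6.90 to -6.77, and 1 was low for Kmt2a at 1.74, the others reaching 1.87 to 1.89. Kdm1b had 1 control array at 0.83, with the other 3 at 0.75, all below the stressed arrays.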

How the results depend on the processing

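Kmt5c in all 3 stressed groups, and Hdac10 in anxiety-susceptible and insusceptible rats, kept their direction and call under the 12 other settings, and when any 1 sample or array was left out. With no filter, calls ended for Hdac10 in depression-susceptible rats (adjusted p = 0.0663), for Hdac1, Kat7, Kat8, Kdm1a and Sirt4 in anxiety-susceptible rats, for Sirt3 in insusceptible rats, and for Kdm1b and Dnmt3a in both of these groups. The percentile over detected probes ended those of Kat7 and Kat8 in anxiety-susceptible rats, Kdm1a in both and Sirt3, and averaging probes ended both Dnmt3a calls. Hdac10 in depression-susceptible rats also lost its call when 1 of the depression-susceptible or control samples was left out. Kdm1b, Hdac1, Dnmt3a, Kdm1a, Sirt4 and Sirt3 likewise lost theirs without any 1 of those 4 samples, as did Kat8 and Kat7 in anxiety-susceptible rats; in insusceptible rats, Kat8 and Kat7 lost theirs without either control sample. Leaving out single arrays ended calls for Dnmt3a (4 of 16 arrays in either group), Kdm1b and Hdac1 in insusceptible rats (2 of 16 each), Kdm1a in anxiety-susceptible rats (1) and Sirt3 (6). Sirt3 in insusceptible rats turned to 0.03 under quantile normalization, 0.05 under normexp with quantile and 0.02 in the value table; the cause was not tested. Counts of called enzymes over leave-outs ran from 1 to 3 in depression-susceptible, 2 to 9 in anxiety-susceptible and 2 to 9 in insusceptible rats against control, 0 to 6 for any difference, and stayed at 0 among stressed groups.

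In the order depression-susceptible, anxiety-susceptible and insusceptible against control, then depression-susceptible against insusceptible, anxiety-susceptible against insusceptible, depression-susceptible against anxiety-susceptible, and any difference, the counts were 15, 25, 26, 19, 10, 21 and 28 with 16 arrays as samples, 19, 24, 21, 14, 3, 15 and 25 with slide as a random block, and 7, 21, 22, 12, 0, 11 and 21 with slide as a fixed block. Of all probes, 50.9%, 71.5%, 73.1%, 61.9%, 37.1%, 62% and 86.7% passed with 16 arrays, 58.3%, 56.8%, 57.3%, 40.4%, 11%, 42.4% and 74.1% with the random block, and 37.7%, 59.5%, 59.8%, 39%, 3.01%, 40.6% and 67% with the fixed block. The enzymes' shares lay below these in every comparison except anxiety-susceptible against control with the random block (61.5%). The fixed block makes no adjustment for slides 3 and 4, so comparisons with anxiety-susceptible or insusceptible rats are not corrected for slide. With no filter the counts were 1, 2, 6, 1, 0, 0 and 2, beside 3.33%, 7.99%, 29.2%, 13.5%, 0%, 0.0203% and 5.29% of all probes. Normexp with the percentile gave 15 and 18 for anxiety-susceptible and insusceptible rats against control, 11 and 9 for the depression-susceptible group against insusceptible and anxiety-susceptible rats, and 14 for any difference, beside 53%, 54.7%, 40.7%, 39.6% and 52.8% of all probes, all above the enzymes' shares. Between these last pairs, quantile normalization gave 1 and 1 (beside 4.71% and 10.2%), normexp with quantile 1 and 2 (beside 0.891% and 8.55%), and the value table and the all-array filter 1 each against anxiety-susceptible rats (beside 8.37% and 7.38%).

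With the replicate block on 16 arrays the counts were 15, 24, 25, 16, 7, 19 and 24, close to those of 16 arrays. The numbers do not pair the samples: same-numbered depression-susceptible and control arrays correlated at -0.549 to -0.438, as numbers cross the slides, and other group pairs at -0.091 to 0.122.

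Scaling also moved all probes. The median of all probes in anxiety-susceptible and insusceptible rats against control was -0.05 and 0.01 under the percentile of all spots, 0.13 and 0.19 under the percentile of detected probes, and 0.19 and 0.23 under normexp with the percentile. The share of higher calls was 45% and 52.9%, 68.4% and 73.7%, and 72.5% and 74.6% under the same settings, and 68.1% and 78.3% for depression-susceptible rats under the first 2. With no filter it was 76.8%, 59.5% and 74.7%. Signal near background limits Hdac2, Ezh2, Dnmt3l, Dnmt1 and Kdm6b.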
